A study of Mus musculus with 8 samples.

Results

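The kinesin superfamily was followed across 3 stem and progenitor populations of mouse bone marrow. Its 39 listed genes were each read from a probe set annotated with exactly 1 gene symbol, or, where a gene had several such sets, from the brightest by mean over the 8 arrays. All 39 were found among 22180 named genes. They comprised 11 mitotic kinesins, 15 transport kinesins and 13 kinesins of other or mixed roles. Kif27 lay below the filter on dim probe sets, so 38 of the 39 were tested, within a fit of 17576 genes.

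Kinesins are motor proteins that bind microtubules and use ATP, most of them to walk along the filament and some to take its ends apart. The mitotic kinesins build the spindle, align chromosomes and complete cytokinesis, and their genes are transcribed mainly in the G2 and M phases of the cell cycle. The transport kinesins carry vesicles, organelles and ciliary cargo, and many were first studied in neurons. Long-term hematopoietic stem cells are known as largely quiescent cells, whereas the progenitors made from them divide more often.

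The arrays measured total RNA of cells sorted from C57/Bl6 bone marrow, with an age of 8 weeks in the labels. Replicates 1 and 3 made up the 2 arrays of long-term stem cells (LT-HSC), sorted as CD48-CD150+CD34-, beside 3 arrays of short-term stem cells (ST-HSC), sorted as CD48-CD150+CD34+, and 3 of multipotent progenitors (MPP), sorted as CD48+CD150-CD34+. Cells of every population were also Lin-Sca1+Kit+. On treatment the labels conflict: the sample descriptions give none, while a protocol shared by all samples tells of 2 hours of DMSO, a first transplant lasting 1 year and a second lasting 3 months. Nothing in the labels ties arrays to separate animals. The p-values thus measure the spread between these samples alone, and that spread may be technical.

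Array medians ran from 4.95 to 5.22 on the log2 scale, and the first replicates of both stem cell populations differed most from the other arrays (median correlation 0.956 for LT-HSC replicate 1 and 0.968 for ST-HSC replicate 1). Of the gate genes, Slamf1 (CD150) fell in MPP by 2.72 against LT-HSC and by 2.28 against ST-HSC (limma adjusted p = 0.00115 and 0.00218). Cd34 read 8.50 and 10.20 on the LT-HSC arrays and 9.55 to 10.15 on the ST-HSC arrays, so its transcript did not separate these populations as the gate does. Cd48 read 5.92 and 6.63 in LT-HSC, 6.51 to 7.49 in ST-HSC and 6.65 to 7.84 in MPP. Its transcript overlapped between ST-HSC and MPP, which the gate separates (difference 0.29, limma adjusted p = 0.999). Kit read 9.84 to 10.45 over all arrays, and Ly6a (Sca1) was not analysed here.

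Promoter windows, which run from 250 bases before to 50 bases after each annotated start, were matched for 31 of the 39 kinesins (RefSeq, GRCm38.p6). They were searched on both strands for the word TTTGAA, the core of the cell cycle genes homology region (CHR), through which MuvB complexes hold down and later switch on G2 and M genes. It lay in 9 of 10 mitotic kinesins with a window, in 1 of 10 transport kinesins and in 2 of 11 other kinesins, against 20.2% of 27025 genes and 17.9% of all 32851 windows. In 7 of the 10 mitotic kinesins the whole word lay within 30 bases of the start, which held for 0 of 10 transport kinesins, 1 of 11 other kinesins and 3.44% of all genes. This distance was chosen after the matches were seen. The stretches below give the 110 bases before the start and the 20 from it on, 5′ to 3′ on the gene's strand. They are shown because they carry the word close to the start, and capitals mark it, as TTTGAA or, on the opposite strand, TTCAAA.
Kif11: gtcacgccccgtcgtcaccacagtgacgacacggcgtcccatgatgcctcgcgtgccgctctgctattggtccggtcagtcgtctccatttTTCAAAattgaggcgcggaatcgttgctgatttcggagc
Kif15: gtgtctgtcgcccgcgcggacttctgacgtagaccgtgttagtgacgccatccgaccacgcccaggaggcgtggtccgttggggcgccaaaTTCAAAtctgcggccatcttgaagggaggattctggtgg
Kif18b: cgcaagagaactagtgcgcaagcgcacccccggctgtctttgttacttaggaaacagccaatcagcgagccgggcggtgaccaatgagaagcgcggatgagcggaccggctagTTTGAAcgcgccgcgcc
Kif20b: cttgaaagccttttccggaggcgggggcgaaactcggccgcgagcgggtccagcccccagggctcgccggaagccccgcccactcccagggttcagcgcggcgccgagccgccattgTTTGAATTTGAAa
Kif22: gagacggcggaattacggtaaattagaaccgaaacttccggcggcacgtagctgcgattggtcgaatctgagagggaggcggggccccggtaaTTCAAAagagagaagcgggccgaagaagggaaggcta
Kif23: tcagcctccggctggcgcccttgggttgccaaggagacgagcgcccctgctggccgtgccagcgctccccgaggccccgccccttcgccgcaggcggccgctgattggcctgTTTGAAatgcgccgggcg
Kifc1: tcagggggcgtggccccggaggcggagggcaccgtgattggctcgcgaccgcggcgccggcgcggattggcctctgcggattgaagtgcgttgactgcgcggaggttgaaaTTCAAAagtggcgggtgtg

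These stretches were Kif11 at chr19:37376272-37376401 (+ strand), Kif15 at chr9:122950971-122951100 (+ strand), Kif18b at chr11:102925105-102925234 (- strand), Kif20b at chr19:34922248-34922377 (+ strand), Kif22 at chr7:127042401-127042530 (- strand), Kif23 at chr9:61946780-61946909 (- strand) and Kifc1 at chr17:33890614-33890743 (- strand). The word began 19 bases before the start in Kif11 and Kif15 and 17 before it in Kif22, while in Kif18b, Kif20b, Kif23 and Kifc1 it lay just after the start. Kif20b carried it in tandem. Kif15, Kif14 and Kif22 also held a match far upstream, 234, 228 and 215 bases before the start. That of Kif14 was its only match.

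The next stretches show how the mitotic set varied, with Kif3a as a transport kinesin without TTTGAA. Capitals mark TTCAAA in Kif2c, GCGCCAAA in Kif18a, which is the opposite strand of the E2F-type word TTTGGCGC, and ATTGG in Kif3a, which is the opposite strand of CCAAT, the box bound by NF-Y. Kif3a was the only 1 of 10 transport kinesins with CCAAT within 30 bases of the start.
Kif2c: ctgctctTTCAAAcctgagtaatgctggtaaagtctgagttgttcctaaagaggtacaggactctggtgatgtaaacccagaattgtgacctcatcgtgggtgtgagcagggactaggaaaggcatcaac
Kif18a: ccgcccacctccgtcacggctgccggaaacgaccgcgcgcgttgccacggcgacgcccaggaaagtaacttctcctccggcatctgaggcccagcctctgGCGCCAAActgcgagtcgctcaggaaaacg
Kif3a: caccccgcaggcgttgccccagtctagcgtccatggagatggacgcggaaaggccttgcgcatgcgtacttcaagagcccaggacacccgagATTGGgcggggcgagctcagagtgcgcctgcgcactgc

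They were Kif2c at chr4:117178753-117178882 (- strand), Kif18a at chr2:109280628-109280757 (+ strand) and Kif3a at chr11:53567259-53567388 (+ strand). In Kif2c the word lay 103 bases upstream. Kif18a was the mitotic kinesin with a window but without a TTTGAA match. The 4 E2F-type words searched (TTTCCCGC, TTTCGCGC, TTTGCCGC and TTTGGCGC) matched 2 of 10 mitotic kinesins, Kif15 and Kif18a, and 2.6% of all genes. In Kif15 this word ran directly into the TTTGAA match. CCAAT matched 6 of 10 mitotic, 3 of 10 transport and 5 of 11 other kinesins, against 41.1% of all genes. No matches overlapped within a kinesin window (0 in each group), and a match is only a match of letters.

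**Figure D1:**
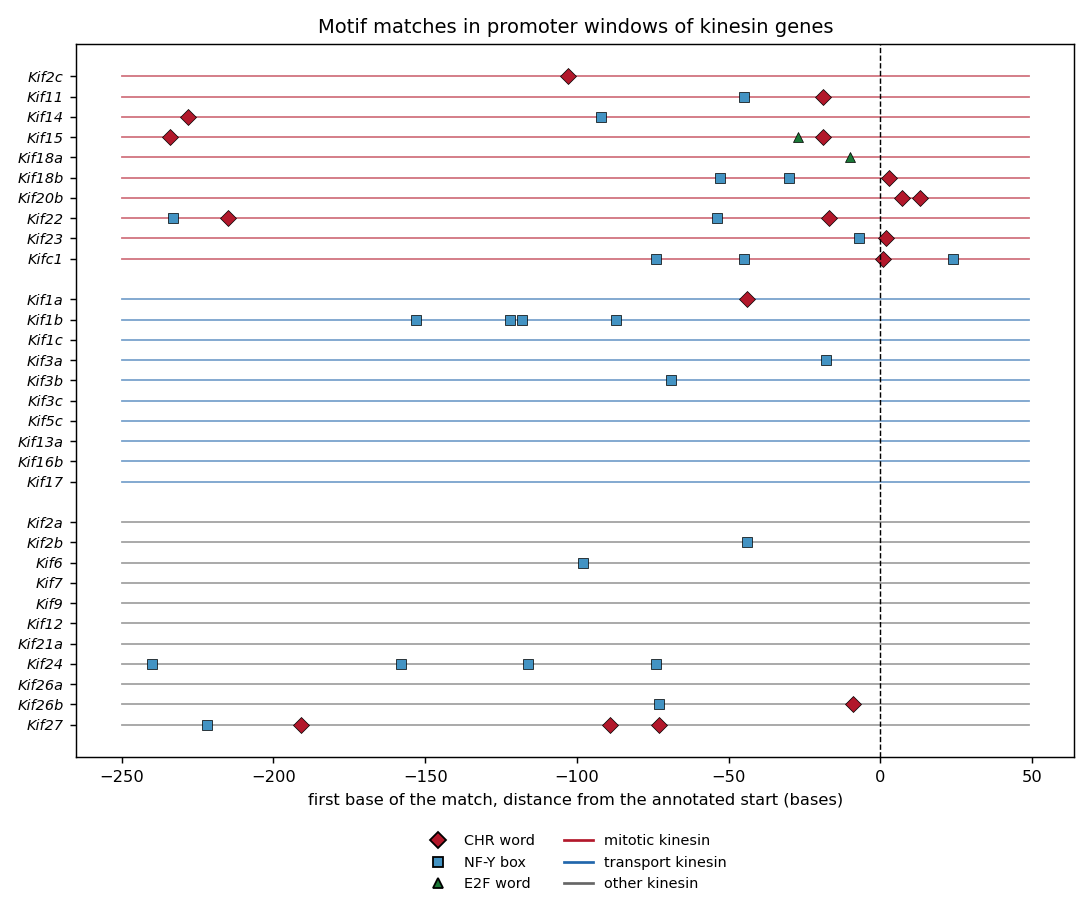
Positions of TTTGAA (CHR word), CCAAT (NF-Y box) and E2F-type words in the promoter windows of 31 kinesin genes, with the distance of each match's first base from the annotated start on the x axis and 1 line per gene. Matches of all windows of a gene are drawn on its line, and the diamonds near 0 belong to 7 mitotic kinesins and to Kif26b.

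By population means, mitotic kinesins were highest in ST-HSC, lowest in LT-HSC and in between in MPP, and the transport kinesins as a group had no such order. Between ST-HSC and LT-HSC, 8 of the 38 tested kinesins rose (limma adjusted p under 0.05) and 0 fell, where 0.848% of all tested genes rose and 0.0853% fell. All 8 were mitotic kinesins: Kif11, Kif14, Kif15, Kif18a, Kif18b, Kif20a, Kif20b and Kif22. Every ST-HSC array lay above every LT-HSC array for 11 of 11 mitotic kinesins, against 13.8% of all tested genes. These role groups were set with earlier results of these data known, so such counts depend on the grouping. A wider mitotic group would add Kif2a, Kif2b and Kif24, which were counted among the other kinesins. They differed by 0.42, -0.22 and 0.49 and were not called (limma adjusted p = 0.443, 0.729 and 0.321). The median difference (ST-HSC minus LT-HSC) was 1.46 over the mitotic kinesins, 0.02 over the transport kinesins and -0.07 over the other kinesins, beside 0.02 over all tested genes. In such bulk samples, fewer cells expressing a gene and less RNA of it per cell cannot be told apart.

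**Figure D2:**
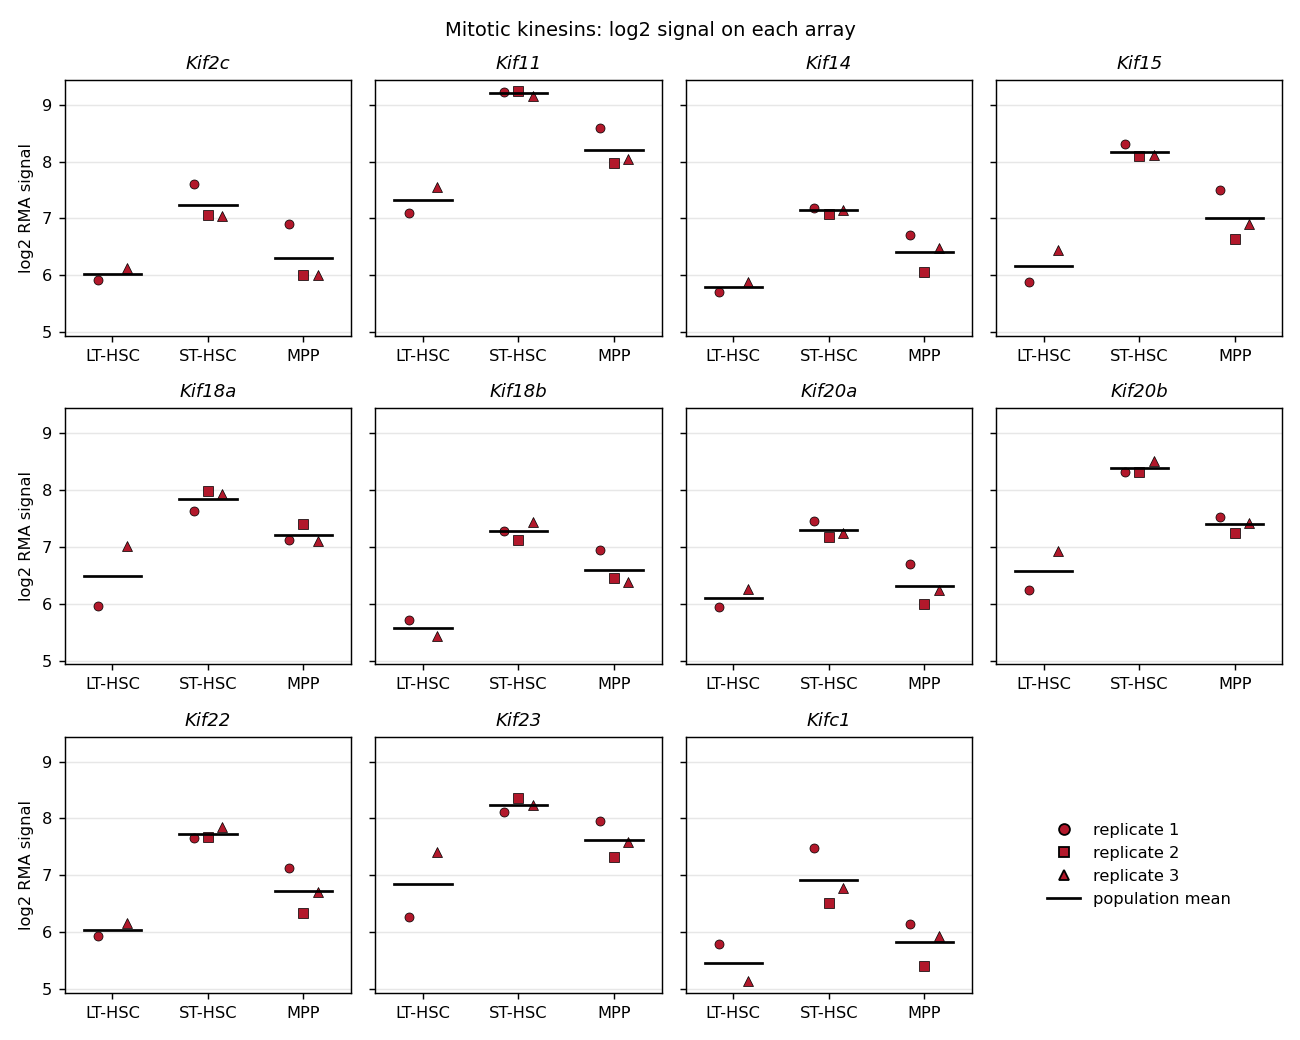
Log2 RMA signal (y axis) of the 11 mitotic kinesins on each of the 8 arrays, by population (x axis). Symbols give the replicate number and bars the population mean. In all 11 panels the 3 ST-HSC arrays lie above all other arrays.

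Of the motors that set up and hold the bipolar spindle, Kif11 and Kif15 rose. Kif11 (Eg5, probe set 17359020) is a tetramer that slides antiparallel microtubules and pushes the poles apart. Its log2 signal was 7.09 and 7.55 on the LT-HSC arrays, 9.22, 9.23 and 9.15 on the ST-HSC arrays, and 8.59, 7.97 and 8.05 on the MPP arrays. The ST-HSC arrays lay within a narrow band, well above both LT-HSC arrays. The LT-HSC mean was 7.32 ± 0.32 (SD, n = 2), that of ST-HSC 9.20 ± 0.05 (SD, n = 3) and that of MPP 8.20 ± 0.34 (SD, n = 3). The ST-HSC minus LT-HSC difference of 1.88 (SE 0.22) was 3.68-fold, with a limma adjusted p of 0.00557. Kif15 (probe set 17523494), which can hold the spindle open beside Kif11, read 5.88 and 6.44 in LT-HSC, 8.30, 8.10 and 8.12 in ST-HSC, and 7.49, 6.63 and 6.89 in MPP. The populations did not overlap, and Kif15 rose by 2.01 (SE 0.26) from LT-HSC to ST-HSC, or 4.04-fold (limma adjusted p = 0.00574). Kifc1 (HSET), a minus-end motor that focuses spindle poles, read 5.79 and 5.14, then 7.48, 6.51 and 6.79, then 6.14, 5.40 and 5.94 in the same order of populations. Its ST-HSC arrays were the 3 highest, with an SD of 0.50 against 0.46 in LT-HSC, and its difference of 1.46 (SE 0.32) was not called (limma adjusted p = 0.0688).

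Motors that move chromosomes or trim microtubule ends rose too. Kif18b (probe set 17270369), which shortens astral microtubules, read 5.71 and 5.43 in LT-HSC, 7.28, 7.12 and 7.44 in ST-HSC, and 6.95, 6.45 and 6.38 in MPP. Kif18b and Kifc1 were the 2 mitotic kinesins with LT-HSC replicate 3 below replicate 1. The Kif18b difference of 1.71 (SE 0.21) was 3.26-fold (limma adjusted p = 0.00574). Kif22 (Kid, probe set 17496568), a chromokinesin that pushes chromosome arms from the poles, read 5.93 and 6.16, then 7.65, 7.67 and 7.85, then 7.13, 6.34 and 6.72. The populations stood apart in this gene as well, and it rose by 1.68 (SE 0.23; limma adjusted p = 0.00648). Kif18a (probe set 17374058), which damps chromosome movements at the metaphase plate, read 5.96 and 7.01, then 7.63, 7.98 and 7.93, then 7.13, 7.40 and 7.10. Its LT-HSC arrays differed from each other more than those of ST-HSC or MPP did, and its rise of 1.36 (SE 0.28) only just passed (limma adjusted p = 0.0485). Kif2c (MCAK), a depolymerase that corrects faulty attachments at centromeres, read 5.91 and 6.13, then 7.60, 7.06 and 7.05, then 6.91, 6.0 and 6.01. ST-HSC and LT-HSC did not overlap here either, but with a difference of 1.21 (SE 0.29) it missed the threshold (limma adjusted p = 0.0998).

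The population means of the kinesins of the spindle midzone and cytokinesis had the same order, though MPP overlapped with LT-HSC in Kif20a and Kif23. Kif20b (probe set 17358838), needed late in cytokinesis, read 6.24 and 6.93 in LT-HSC, 8.31, 8.32 and 8.50 in ST-HSC, and 7.52, 7.25 and 7.41 in MPP, and rose 3.48-fold (difference 1.80, SE 0.22; limma adjusted p = 0.00574). Kif14 (probe set 17217789), which works with citron kinase at the midbody, read 5.71 and 5.89, then 7.19, 7.08 and 7.16, then 6.71, 6.05 and 6.47, and rose by 1.34 (SE 0.21; limma adjusted p = 0.0117). Kif20a (MKLP2, probe set 17349433), which brings the chromosomal passenger complex to the midzone, read 5.94 and 6.27, then 7.46, 7.17 and 7.24, then 6.70, 5.99 and 6.25. It rose by 1.19 (SE 0.23; limma adjusted p = 0.0364), the smallest difference among the 8 called. Kif23 (MKLP1), the motor of centralspindlin, read 6.27 and 7.41, then 8.11, 8.36 and 8.24, then 7.95, 7.32 and 7.58. With LT-HSC arrays that far apart, its difference of 1.40 (SE 0.30) was not called (limma adjusted p = 0.067).

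These calls rested on few arrays. Without LT-HSC replicate 1, 2 of the 8 remained called (Kif18b and Kif20b), beside 0.0967% of all tested genes in either direction. Without ST-HSC replicate 3, 5 kinesins were called, beside 0.302% of all tested genes, and without the replicate 1 arrays of both stem cell populations 0 kinesins and 0% of all tested genes were called. Where LT-HSC keeps 1 array, that array is assumed to vary like those of the other populations. In these 3 settings 11 of 11 mitotic differences stayed positive with medians of 1.45, 1.53 and 1.48. Kif18a and Kif20a lost their calls in 14 and 10 of 18 alternative settings.

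MPP lay between the stem cell populations. The mean of MPP stood at 17.5% (Kif20a) to 59.8% (Kif18b) of the way from the LT-HSC to the ST-HSC mean over the mitotic kinesins, with Kif11 at 46.9%, Kif20b at 45.2% and Kif15 at 41.9%. The comparisons below share their arrays with the first, so they are no separate support for it. Against LT-HSC, 11 of 11 mitotic kinesins had positive differences (median 0.73, beside 0.06 over all tested genes), and all MPP arrays lay above both LT-HSC arrays for 7 of them, where 14.1% of all tested genes did so. None passed limma's threshold: 0 of 38 kinesins were called higher or lower, beside 0.00569% and 0.119% of all tested genes, and 11 of 38 had an unadjusted p under 0.05, 8 of them mitotic, beside 10.6% of all tested genes. Kif18b came nearest, at 1.02 (SE 0.21; limma adjusted p = 0.15). Without LT-HSC replicate 3, which leaves LT-HSC with 1 array, the count called was 4, beside 3.5% of all tested genes.

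Against ST-HSC, all MPP arrays lay below all ST-HSC arrays for 11 of 11 mitotic kinesins, where 6.43% of all tested genes did so. The median difference (MPP minus ST-HSC) was -0.98, beside 0.06 over the transport kinesins and 0.01 over all tested genes. Kif15 was lowest at -1.17 (SE 0.23), followed by Kifc1 at -1.10 (SE 0.28), Kif11 at -0.998 (SE 0.20) and Kif22 at -0.998 (SE 0.20), and Kif23 was the least lowered at -0.62 (SE 0.27). Limma called 0 of 38 kinesins, with adjusted p from 0.0893 to 0.696 over the mitotic ones, and 14 of 38 had an unadjusted p under 0.05, beside 6.89% of all tested genes. Over all tested genes, 0.125% were called lower and 0.0683% higher.

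Deviations of ST-HSC and MPP arrays with the same replicate number correlated weakly (0.149, 0.23 and 0.209), and the labels state no pairing. The main fit has no block. An alternative fit with that number as a block called 7 of 38 kinesins lower, where it called 0.802% of all tested genes lower. All 7 were mitotic: Kifc1 (-1.10, limma adjusted p = 0.00757), Kif15 (-1.17, 0.0133), Kif20b (-0.98, 0.0156), Kif22 (-0.998, 0.0172), Kif20a (-0.98, 0.0175), Kif11 (-0.998, 0.0224) and Kif2c (-0.93, 0.0369). Kif14, Kif18a, Kif18b and Kif23 did not pass in that fit (limma adjusted p = 0.063, 0.185, 0.0886 and 0.357). With array weights in place of the block, 13 of 38 kinesins were called, 12 lower and 1 higher, among them 11 of 11 mitotic kinesins. That setting raised the share of all tested genes called in either direction to 2.99%.

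Among the MPP arrays, replicate 1 was the highest for 10 of 11 mitotic kinesins, all but Kif18a. In LT-HSC, replicate 3 exceeded replicate 1 for 9 of 11, and replicate 1 was the lowest of all 8 arrays for 9 of 11. In ST-HSC no array led throughout: replicate 1 was highest for 5, replicate 2 for 3 and replicate 3 for 3. The median deviation of the mitotic kinesins from their means over all arrays was -0.998 and -0.65 on the LT-HSC arrays, 0.75, 0.71 and 0.66 on the ST-HSC arrays, and 0.19, -0.48 and -0.21 on the MPP arrays. Subtracting the transport kinesins' median on the same array left -0.98 and -0.71, then 0.78, 0.65 and 0.65, then 0.05, -0.39 and -0.31. The populations kept their order without overlap in this contrast of mitotic with transport kinesins.

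**Figure D3:**
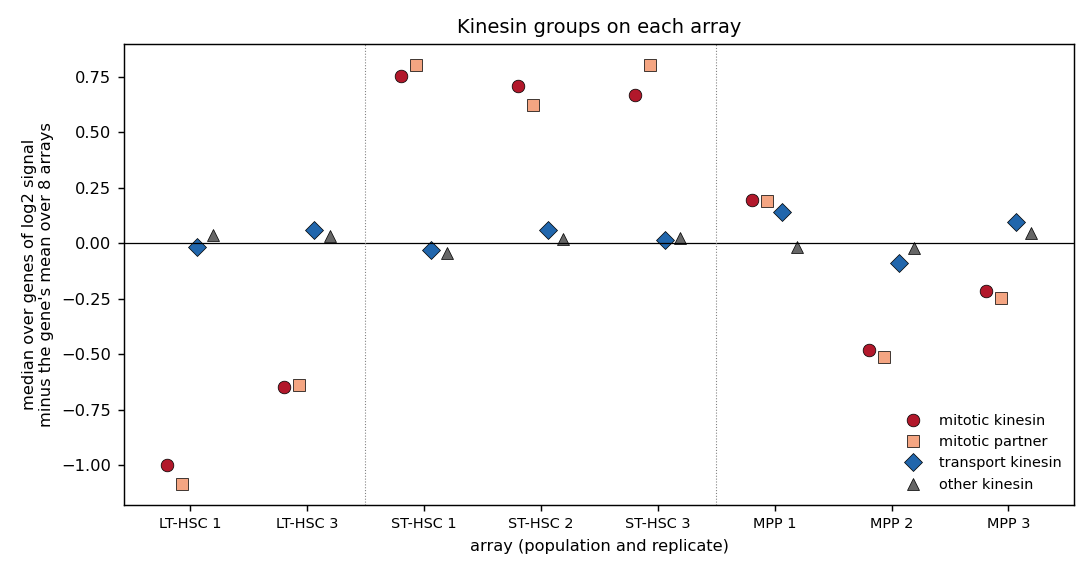
Median deviation of each gene group from its genes' means over the 8 arrays (y axis, log2), on each array (x axis, population and replicate). Mitotic kinesins range from -0.998 to 0.75 and mitotic partner genes follow them closely, while transport kinesins stay between -0.09 and 0.14.

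Markers of other blood and marrow cells differed between arrays as well. The 10 granulocyte and monocyte markers had median deviations of 1.10 on LT-HSC replicate 1, 1.42 on ST-HSC replicate 1, 0.76 on MPP replicate 1 and of -0.81 to -0.36 on the other 5, and S100a8 ranged from 6.61 to 11.29. The 3 erythroid markers tested were highest on ST-HSC replicate 1 and MPP replicate 1 (1.14 and 0.46), and the stroma and endothelium markers on ST-HSC replicate 1 (1.28). No gene of these lists was called between ST-HSC and LT-HSC (smallest limma adjusted p 0.759, 0.461 and 0.588). There 0 had an unadjusted p under 0.05, beside 11.1% of all tested genes, and the SE reached 1.67 for the stroma marker Col1a2. Of the 5 T and NK cell markers tested, 1 had such a p, and of the 4 B cell markers 0 did. The 1 was Nkg7 (difference 0.88, SE 0.22, limma adjusted p = 0.131). ST-HSC replicates 2 and 3 had granulocyte marker medians of -0.54 and -0.81. Their mitotic kinesin medians were 0.71 and 0.66, beside 0.75 on replicate 1. The part of such markers in the mitotic signal of any population, or of MPP replicate 1, was not tested.

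No transport kinesin was called in any comparison, with 15 of 15 tested, and the smallest limma adjusted p was 0.461 for ST-HSC against LT-HSC, 0.312 for MPP against LT-HSC and 0.301 for MPP against ST-HSC. At an unadjusted p under 0.05 there were 0, 1 and 2 of them, beside 11.1%, 10.6% and 6.89% of all tested genes. Their differences ran from -0.41 to 0.46 for ST-HSC minus LT-HSC, with 9 positive and 6 negative, whereas the mitotic kinesins ran from 1.19 to 2.01. The sign counts of such small differences shifted with the scaling: centring each array on its median moved the median of all genes from 0.02 to 0.13 and left 11 of 15 positive.

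**Figure D4:**
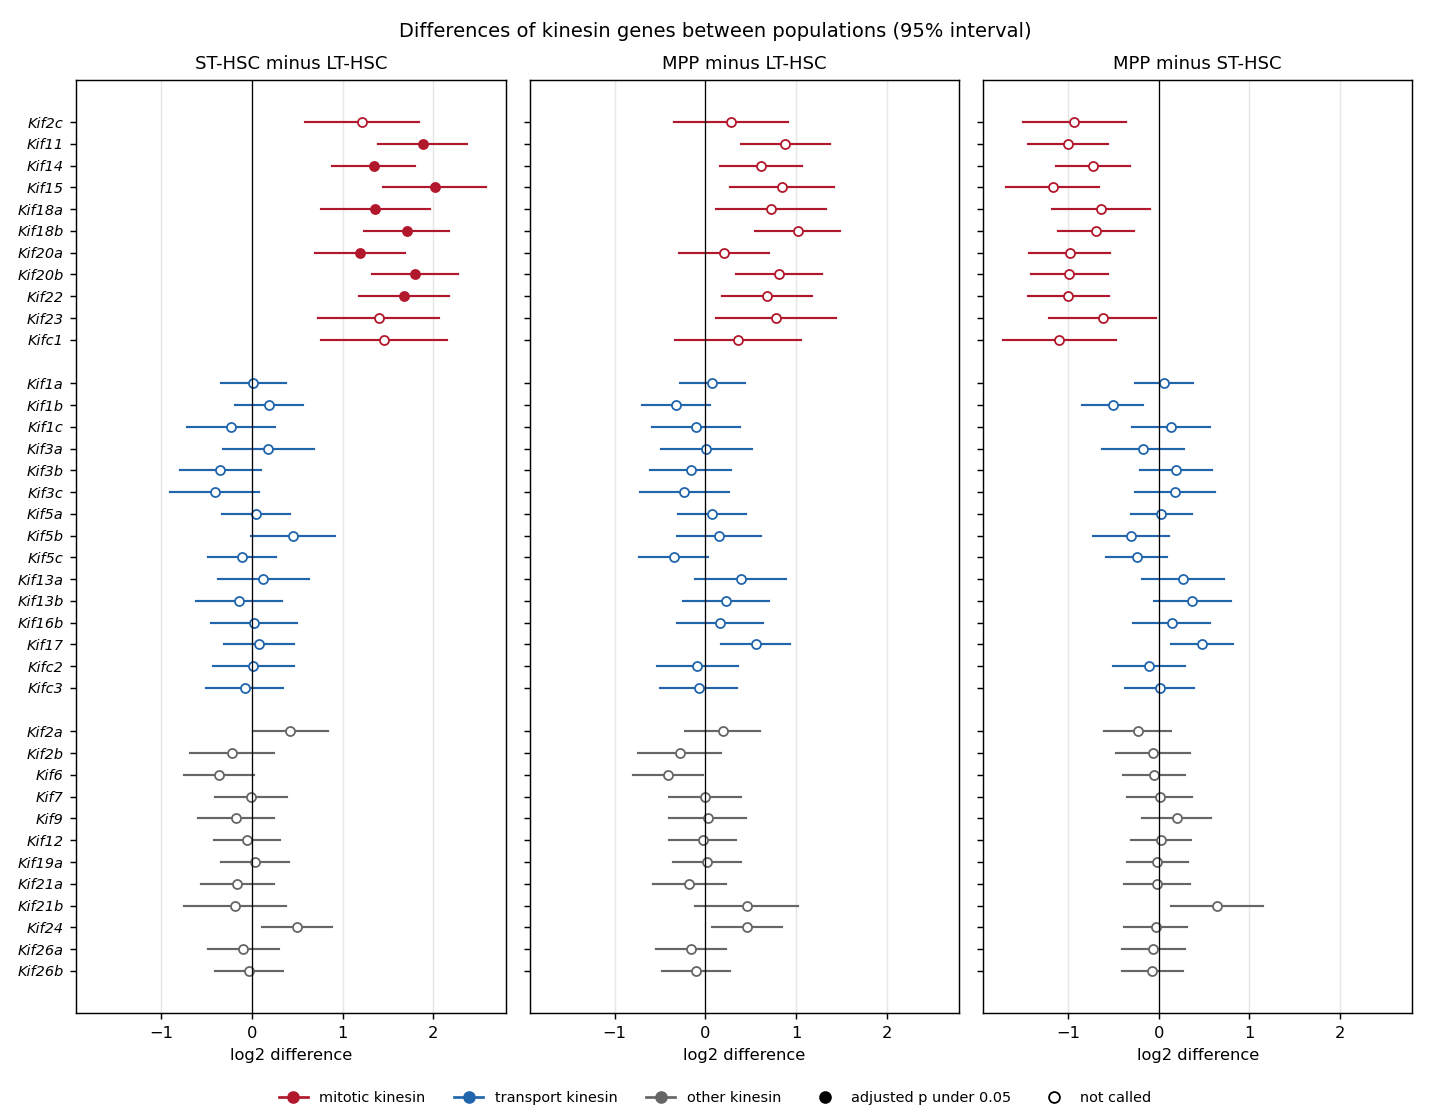
Log2 differences between populations (x axis) with 95% intervals for the 38 tested kinesins (y axis), in 1 panel per comparison. Filled circles mark limma adjusted p under 0.05, which are 8 mitotic kinesins in the first panel and none in the others, where open mitotic circles lie to the right of 0 (MPP minus LT-HSC) and to the left of 0 (MPP minus ST-HSC).

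Kif5b, the conventional kinesin heavy chain of most cell types, read 7.94 and 8.44 in LT-HSC, 8.84, 8.65 and 8.44 in ST-HSC, and 8.56, 8.20 and 8.26 in MPP. Its ST-HSC arrays lay at or above the higher LT-HSC array, and the difference of 0.46 (95% interval -0.01 to 0.92) was not called (limma adjusted p = 0.461). A second Kif5b probe set read 7.74 and 8.33, then 8.69, 8.61 and 8.50, then 8.45, 8.35 and 8.47. The heavy chains known mainly from neurons, Kif5a and Kif5c, read 4.71 to 5.04 and 3.67 to 4.26 over all arrays. ST-HSC overlapped with LT-HSC in each. In Kif5c, which is near the filter, the MPP arrays were the lowest. Its differences of -0.35 from LT-HSC and -0.24 from ST-HSC were not called (limma adjusted p = 0.501 and 0.938).

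Of the kinesin-3 motors, Kif1b, which carries mitochondria and vesicle precursors, read 5.74 and 5.61 in LT-HSC, 5.85, 5.87 and 5.86 in ST-HSC, and 5.21, 5.54 and 5.31 in MPP. The MPP arrays were the 3 lowest, with a difference of -0.51 (SE 0.15) from ST-HSC that was not called (limma adjusted p = 0.301). Kif1a, the motor of synaptic vesicle precursors, read 4.23 to 4.46 and Kif1c 5.41 to 6.16, with overlap in every comparison. The endosome motor Kif13a read 6.44 and 7.20 in LT-HSC, 6.73, 6.98 and 7.12 in ST-HSC, and 7.22, 7.21 and 7.21 in MPP. Its MPP arrays lay just above the rest, 0.27 (SE 0.20) over ST-HSC, which limma did not call (adjusted p = 0.994). Kif13b, which binds the scaffold Dlg1, read 6.36 to 7.25. Its MPP arrays also lay just above the rest, 0.37 (SE 0.19) over ST-HSC, without a call (limma adjusted p = 0.841). Kif16b, which carries early endosomes, read 6.80 to 7.36.

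Of the kinesin-2 motors, Kif17, a homodimer that works in cilia and dendrites, read 6.10 and 6.23 in LT-HSC, 6.15, 6.24 and 6.32 in ST-HSC, and 6.73, 6.53 and 6.89 in MPP. Every MPP array exceeded every other array, yet the differences of 0.56 (SE 0.17) from LT-HSC and 0.48 (SE 0.16) from ST-HSC were not called (limma adjusted p = 0.312 and 0.387). With array weights, Kif17 was called higher and Kif1b lower in MPP than in ST-HSC (limma adjusted p = 0.0296 and 0.0219). Kif3a and Kif3b, which form the motor of intraflagellar transport, read 6.09 to 6.72 and 6.11 to 6.75 with overlap in every comparison. Kif3c, a further partner of Kif3a, read 5.96 and 6.03 in LT-HSC and 5.48 to 5.73 in ST-HSC (difference -0.41, SE 0.22; limma adjusted p = 0.529). The minus-end motors Kifc2 and Kifc3 read 4.64 to 5.20 and 4.01 to 4.54.

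None of the 12 tested kinesins of other roles was called either, at smallest limma adjusted p of 0.321, 0.413 and 0.487 in the 3 comparisons. At an unadjusted p under 0.05 there were 2, 2 and 1 of them, beside 11.1%, 10.6% and 6.89% of all tested genes. Kif24, a centriolar kinesin that restrains cilium growth, read 5.07 and 5.43 in LT-HSC, 5.84, 5.70 and 5.68 in ST-HSC, and 5.77, 5.60 and 5.75 in MPP. LT-HSC was lowest, with differences of 0.49 (SE 0.18; limma adjusted p = 0.321) and 0.46 (SE 0.18; 0.413) in ST-HSC and MPP. The depolymerase Kif2a, which also acts at spindle poles, read 8.67 and 9.21, then 9.40, 9.36 and 9.31, then 9.16, 9.09 and 9.13. Its population means had the order of the mitotic kinesins, and the ST-HSC minus LT-HSC difference was 0.42 (95% interval 0.01 to 0.84; limma adjusted p = 0.443). Its relative Kif2b read 3.76 to 4.48, near the filter.

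Kif21b, a motor that limits microtubule growth in neurons and T cells, read 6.16 and 6.54 in LT-HSC, 5.64, 6.53 and 6.31 in ST-HSC, and 6.64, 6.96 and 6.82 in MPP. All MPP arrays lay above the others, 0.64 (SE 0.23) over ST-HSC, without a call (limma adjusted p = 0.487). Kif6, a kinesin of motile cilia, read 5.26 and 5.37 in LT-HSC against 4.82 to 5.11 in ST-HSC and 4.76 to 5.05 in MPP (differences -0.36 and -0.41, SE 0.17; limma adjusted p = 0.476 and 0.452). The remaining ones stayed within narrow ranges: the Hedgehog pathway kinesin Kif7 at 5.12 to 5.54, the ciliary kinesins Kif9 and Kif19a at 4.32 to 4.91 and 5.02 to 5.27, Kif12 at 4.47 to 4.75, Kif21a at 4.55 to 5.01, Kif26a at 5.71 to 6.09 and Kif26b at 4.95 to 5.32. Kif27, a relative of Kif7, read 3.50 to 3.91 and was not tested.

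Most listed partners of the mitotic kinesins rose in ST-HSC as well, a list that also holds the mitotic motors Cenpe and Kif4. Of 16 listed genes, 15 rose between LT-HSC and ST-HSC (limma adjusted p under 0.05) and 0 fell, with a median difference of 1.63. Over all tested genes, 0.848% rose and 0.0853% fell. Prc1, which bundles midzone microtubules, read 6.87 and 7.01 in LT-HSC, 8.70, 8.74 and 8.89 in ST-HSC, and 7.91, 7.50 and 7.62 in MPP. The populations did not overlap, and Prc1 rose by 1.84 to ST-HSC and fell by 1.10 from ST-HSC to MPP (limma adjusted p = 0.00401 and 0.0297). Nusap1, a spindle microtubule stabiliser, rose by 1.89 and fell by 1.12 (limma adjusted p = 0.00441 and 0.0485). The smallest p after these were those of Hmmr (1.95), Racgap1 (1.43), which pairs with Kif23 in centralspindlin, Aurkb (1.73), the kinase that Kif20a carries, and Tpx2 (1.62), which binds Kif11. Numa1, the pole protein that is also part of the interphase nucleus, differed by 0.02 and was not called (limma adjusted p = 0.983).

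Between MPP and ST-HSC, Prc1 and Nusap1 were the 2 of 16 called lower, beside 0.125% of all tested genes. With the replicate block 9 of 16 were called lower, beside 0.802% of all tested genes. Among the 9 were Tpx2, Aurkb and Hmmr (limma adjusted p = 0.0117, 0.0117 and 0.013). That fit called 0 of 15 transport kinesins and 0 of 12 other kinesins. Between MPP and LT-HSC, limma called 0 of 16 mitotic partners, 12 having an unadjusted p under 0.05, beside 10.6% of all tested genes. In their promoter windows TTTGAA lay in 9 of 13 mitotic partners with a window, against 20.2% of all genes. In 7 of them it lay within 30 bases of the start, the distance chosen after the matches were seen, against 3.44% of all genes.

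Few genes of cargo adaptors, dynein and tubulin were called. Of the 18 transport partners, 15 were matched and tested and 0 were called in any comparison (3, 3 and 2 at an unadjusted p under 0.05). Over all tested genes 11.1%, 10.6% and 6.89% had such a p in the 3 comparisons. Named by their mean signal, Trak2, which links kinesin to mitochondria, read 7.06 to 7.58 and Klc1, a kinesin light chain, 6.81 to 7.38. Of the 19 genes of cytoplasmic dynein, the minus-end transport motor, and its cofactors, 18 were tested and 0 called (1, 1 and 0 at an unadjusted p under 0.05). Dctn4 and Dynlrb1, named by the same rule, had ST-HSC minus LT-HSC differences of 0.21 and 0.29. Of 17 tubulins 16 were tested. Tuba8, an alpha-tubulin, fell by 1.18 from ST-HSC to MPP (limma adjusted p = 0.0456), and no tubulin was called in the other comparisons (4 and 1 at an unadjusted p under 0.05). Tuba1c and Tuba1b, named likewise, differed by 0.16 and 0.23 between ST-HSC and LT-HSC. There 14 of the 16 tubulins had positive differences, beside 52.0% of all tested genes, with a median of 0.31 beside 0.02. Tuba8 rose by 1.04 from LT-HSC to ST-HSC without a call (limma adjusted p = 0.0576). The 6 neuron markers, included because several transport kinesins are neuronal, had median deviations of -0.17 to 0.26.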

How the data were processed

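Total RNA was extracted with Trizol, amplified with the Ovation Pico WTA V2 kit and labelled with the Encore Biotin module, per the labels' protocols. Per the submitters' processing notes the authors used RMA, which corrects background, normalizes and summarises probe sets and whose version is not given in the sources used here. As for scale, the deposited values are log2 signals for 33649 probe sets, a scale read from the values. Amplification can add spread, and log2 RMA values compress differences of dim probe sets. Raw signals were not analysed here, and the number of arrays limits the precision.

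Probe sets with several symbols (1814) stayed unnamed. Genes with a mean at or above the 25th percentile of all probe sets (3.88) entered 1 limma fit (limma 3.58.1, R 4.3.3) of all 8 arrays with a mean per population, 5 residual and 5.93 prior degrees of freedom. P-values are two-sided, adjusted by Benjamini-Hochberg over 17576 genes and called under 0.05, with SE from the fit. The fit was tested on simulated data with independent errors and shifts in ST-HSC only, which does not cover deviations shared between arrays. The members and lists were chosen with earlier results of these data known. All 39 kinesins are accounted for, and from other lists up to 6 called genes with the smallest p per comparison and the 2 most highly expressed genes not called may be named. Prc1, Numa1 and Tuba8 follow this rule.

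Deviations from population means correlated at 0.149, 0.23 and 0.209 between ST-HSC and MPP arrays numbered 1, 2 and 3, all above 0.1. The numbers were therefore taken to pair them in the block fit, though not in the main fit. The labels state no pairing. Alternatives varied the filter, scaling, array weights, range covariate, arrays in the fit, block, probe set rule, role groups and each array left out. Leaving out both arrays that stood apart was chosen after seeing the data. Promoter sequences came from RefSeq (GRCm38.p6).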

Additional observations from a re-analysis of the deposited data

How the results depend on the processing

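The direction of all 11 mitotic kinesins held in all alternatives when ST-HSC was set against LT-HSC or against MPP, and for MPP minus LT-HSC except Kif2c without MPP replicate 1. The replicate block changed no call of the other gene lists for MPP minus ST-HSC except those of the mitotic partners. The counts called changed more, over the kinesins and over all 17576 tested genes. Over all tested genes, ST-HSC minus LT-HSC had 164 called in the main fit, 61 with array weights and 473 with the replicate block. Without LT-HSC replicate 3, which leaves LT-HSC with 1 array, this comparison had more of all tested genes called than in any of these fits. The larger kinesin count of that setting, given below, came with this wider rise. MPP minus LT-HSC had 22 in the main fit and 157 with the replicate block. MPP minus ST-HSC had 34 in the main fit, 267 with the replicate block and 525 with array weights. It had 197 with the array's interquartile range as a covariate and 71 in a fit of only the 2 populations. For ST-HSC minus LT-HSC, 8 kinesins were called, 5 with array weights, 11 with the replicate block (Kifc1, Kif23 and Kif2c added, limma adjusted p = 0.000437, 0.0129 and 0.00682), 2 to 9 with 1 array left out (9 without LT-HSC replicate 3) and 0 without LT-HSC replicate 1 and ST-HSC replicate 1 together, and the median mitotic difference was 1.45 to 1.79 with 1 array left out. For MPP minus LT-HSC, 0 were called, 1 with the replicate block and 0 to 4 with 1 array left out, and the median mitotic difference of 0.73 became 0.48 with the array's interquartile range as a covariate and 0.53 to 0.88 with 1 array left out. For MPP minus ST-HSC, 0 were called, 7 with the replicate block, 13 with array weights and 5 with the interquartile range as a covariate. A fit of only the 2 populations compared called 1. With 1 ST-HSC or MPP array left out, 0 kinesins were called, beside 1 to 20 of all tested genes. Median centring called 6 kinesins for ST-HSC minus LT-HSC, beside 104 of all tested genes. It moved the median of all genes from 0.06 to 0.18 for MPP minus LT-HSC. The cause of these changes was not tested.

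LT-HSC shares only the numbers 1 and 3 with the others. Its same-numbered arrays gave deviation correlations of 0.536 and 0.475 with ST-HSC, which also exceed 0.1, and of -0.159 and 0.0988 with MPP. With 2 LT-HSC arrays the deviations mirror each other, so these values were not taken as a pairing. The block fit numbers the LT-HSC arrays all the same.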

Other observations

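Some probe sets outside the chosen ones bear on the kinesins. Kifc5b, a near-identical copy of Kifc1, has its own probe set, which read 6.03 and 5.78 in LT-HSC, 5.91, 5.76 and 6.0 in ST-HSC, and 6.35, 5.65 and 6.01 in MPP. It did not show the ST-HSC peak of Kifc1, and whether either probe set also binds the other's transcript was not tested. Kif4, a chromokinesin outside the member list, was counted above among the mitotic partners called higher in ST-HSC than in LT-HSC. It read 5.09 and 6.33, then 7.57, 8.02 and 7.51, then 7.17, 6.28 and 6.50, while the probe set of the pseudogene Kif4-ps read 3.55 to 4.51. The second probe sets of Kif7 and Kif27 read 4.17 to 5.15 and 3.22 to 3.77.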
